A study of Rattus norvegicus with 56 samples.

Results

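The miR-15, miR-16 and miR-497 seed family was followed here through its 6 listed members, rno-miR-15b-5p, rno-miR-16-5p, rno-miR-195-5p, rno-miR-497-5p, rno-miR-322-5p and rno-miR-503-5p. The members were given as a list of names with no rule on measured values, and all 6 were present among the 367 mature miRNAs counted. Small RNA from rat hippocampus was sequenced at 7 intervals (24 h, 2 weeks, 1 month, 2 months, 3 months, 6 months and 1 year). At each interval 4 rats had received a traumatic brain injury (TBI) by fluid percussion, a fluid pressure pulse onto the dura, and 4 control rats had received sham surgery, giving 28 TBI and 28 sham libraries from 56 rats. The comparison asks whether injury changed hippocampal miRNA levels, and for how long. Strain, sex, age and the hippocampal side sampled are not given in the labels, which name no genetic change and no drug. Age cannot be told apart from the interval, and the labels give no surgical cohort or library preparation batch.

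A miRNA guides the silencing machinery to messenger RNAs that pair with its seed, the short stretch near its 5′ end, so miRNAs that share a seed share many predicted targets. The miR-15 and miR-16 family is known for restraining the cell cycle through cyclins and cyclin-dependent kinases and for repressing the anti-apoptotic protein BCL2. Its members come from several clusters of miRNA genes, each cluster being transcribed as a common precursor. In brain tissue most neurons no longer divide, and members of this family are also studied there as regulators of neuronal survival and of neurotrophin genes.

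The mature sequences are shown because the shared seed defines the family, while the 3′ portions separate its members. They are RefSeq sequences on the build GRCr8, written 5′ to 3′ with the seed (bases 2 to 8) in capitals.
rno-miR-15b-5p: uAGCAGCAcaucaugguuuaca
rno-miR-16-5p: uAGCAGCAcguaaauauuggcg
rno-miR-195-5p: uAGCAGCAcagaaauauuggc
rno-miR-497-5p: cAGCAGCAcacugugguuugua
rno-miR-322-5p: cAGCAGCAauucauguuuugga
rno-miR-503-5p: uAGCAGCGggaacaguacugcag

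Of these miRNAs, 5 carry exactly the seed AGCAGCA, and rno-miR-503-5p carries AGCAGCG, an A8G difference counted from the 5′ end against the other members. Outside the seed the most similar pair was rno-miR-16-5p and rno-miR-195-5p, with 12 of 14 compared bases identical, although they come from different chromosomes. The neighbours rno-miR-195-5p and rno-miR-497-5p shared only 5 of 14 bases outside the seed. Sequences were found for 331 of the 367 counted miRNAs, and in that set no miRNA outside the 6 members carried either seed. The set did not include rno-miR-15a-5p, known as a further miRNA of this family, which was counted at a mean of 36.1 CPM over the 56 libraries. The division of reads matching more than 1 miRNA is not given in the sources used here, and its part in the counts of rno-miR-16-5p and rno-miR-195-5p was not tested.

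The members lie in 3 genomic pairs. Mir15b (chr2:155555197-155555218 for the mature sequence) and Mir16 (chr2:155555343-155555364) lie on the plus strand within the gene Smc4, which encodes a condensin subunit. Mir497 (chr10:55450172-55450193) and Mir195 (chr10:55450509-55450529) lie next to each other on the plus strand, outside any other annotated gene. Mir322 (chrX:137726198-137726219) and Mir503 (chrX:137725899-137725921) lie on the minus strand, overlap the annotated gene LOC102550366, and have Mir351, Mir542 and Mir450 genes within 10 kb. The coordinates are those of GRCr8; the counts themselves name no genome build.

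The family spanned a wide range of levels but kept a nearly fixed order in every rat. Levels are given as CPM (counts scaled to 1000000 per library, adjusted between libraries by the TMM method), and are not divided by length because mature miRNAs are of nearly equal size. Over the 56 libraries, rno-miR-16-5p was the most abundant member, with a mean of 1219 CPM ± 226 (SD, n = 56), and ranked 51 of 367 miRNAs. Next came rno-miR-195-5p at 519 ± 93.0 CPM and rno-miR-497-5p at 198 ± 37.0 CPM. The lower members were rno-miR-322-5p at 63.1 ± 15.1 CPM, rno-miR-15b-5p at 29.7 ± 9.33 CPM and rno-miR-503-5p at 18.6 ± 4.31 CPM. This order held in 53 of 56 libraries, and in the other 3 libraries rno-miR-503-5p was above rno-miR-15b-5p, so only these neighbours in the order changed places. Levels of different miRNAs also reflect how well each sequence is ligated and amplified, so the order is that of the libraries.

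Of the CPM of the 6 members summed over the 56 libraries, rno-miR-16-5p took 59.5% and rno-miR-195-5p 25.4%, while rno-miR-503-5p took 0.907%. Together the members held between 0.0865% and 0.333% of all counts in a library, with a median of 0.203%. Every member was detected in every library. The lowest count of rno-miR-503-5p was 3, in the shallow library of a TBI rat at 2 months, and its median count was 91.5.

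Total counts ranged from 2083604 to 12468979 in 55 libraries and were 69628 in that shallow library, where a count of 0 would allow up to 43.1 CPM. Such a limit covers counting error only, since amplified reads are not independent molecules. All 84 pairs of libraries of the same group differed by more than sampling noise. Neuronal miRNAs (miR-9a, miR-124, miR-128 and others) summed to between 151322 and 351614 CPM in every library, which does not test the brain region sampled. Choroid plexus miRNAs, listed further below, summed to 2569 to 20449 CPM in sham rats of 3 months and 2012 to 18757 CPM in sham rats of 1 year. The highest sum in any other group was 5107 CPM, in sham rats of 24 h. The part of this spread in the members' levels was not tested. The lowest level of rno-miR-16-5p, rno-miR-195-5p, rno-miR-497-5p and rno-miR-322-5p was in each case in TBI 1 month replicate 2, which also had the lowest TMM factor of all libraries (0.835).

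**Figure D1:**
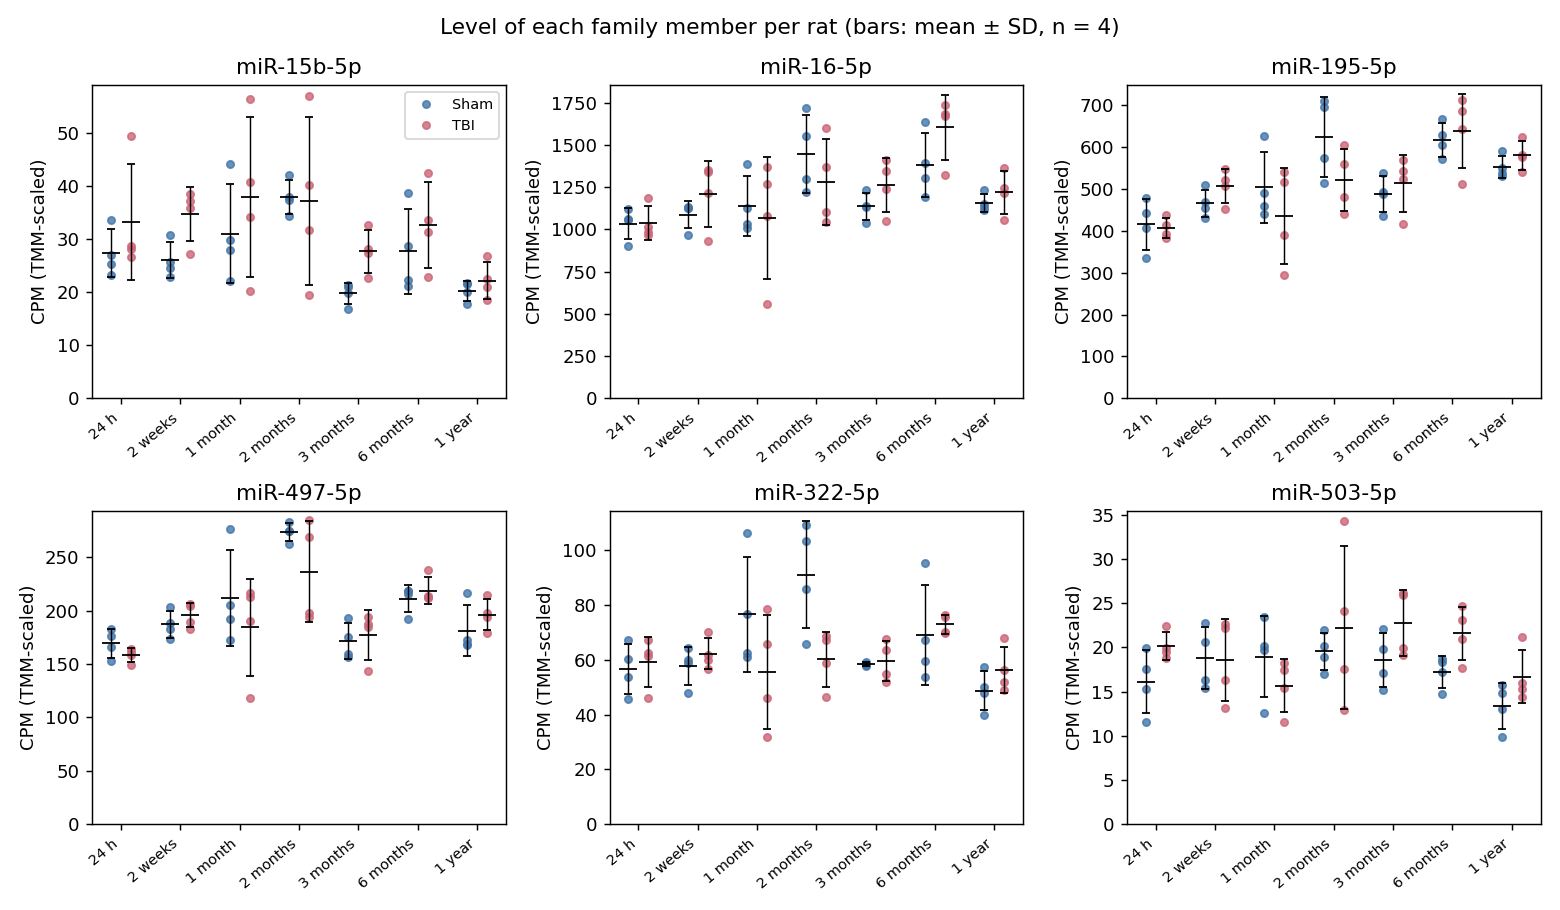
CPM of each of the 6 members (y axis, linear from 0) by interval (x axis, categories not to scale) for 4 sham rats (blue) and 4 TBI rats (red) per interval; black bars are the mean ± SD. TBI and sham points overlap for every member and interval except miR-15b-5p at 3 months, where the 4 TBI rats lie higher.

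No member passed the threshold for an effect of TBI at any interval. The test was edgeR's quasi-likelihood test of the counts, with p adjusted by the method of Benjamini and Hochberg over all miRNAs tested at that interval and a threshold of 0.05. Of the 6 members, 0 were called at each of the 7 intervals, and 3 of the 42 member by interval tests (7.14%) had an unadjusted p under 0.05, against 138 of 1605 tests (8.6%) over all miRNAs. It called 1.72% of all miRNAs at 24 h, 0% at 2 weeks, 0.417% at 1 month, and 0% at 2 months, 3 months, 6 months and 1 year, so a share of 0 among the members was near the background throughout. The likelihood ratio test of edgeR and both tests of DESeq2 also called 0 members at every interval. In these counts a member's log2 fold change had a standard error (SE) between 0.07 and 0.30, which sets what size of change could be seen.

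The highest fold changes belonged to rno-miR-15b-5p, which is known for targeting cyclins. At 3 months its level was 32.6, 28.2, 27.4 and 22.7 CPM in the TBI rats and 20.9, 21.4, 19.8 and 16.9 CPM in the sham rats. The lowest TBI rat exceeded the highest sham rat. The log2 fold change was 0.49 (SE 0.15) with an unadjusted p of 0.00828 and an adjusted p of 0.318 in the quasi-likelihood fit. An exact two-sided permutation test of its log2 CPM gave p = 0.0286, the smallest value that 4 against 4 rats allow. At 3 months 3.28% of 244 miRNAs had every TBI rat above every sham rat. Over the 7 intervals, 1 of 42 member comparisons had no overlap in either direction, against 5.04% of all miRNA by interval comparisons.

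At 2 weeks rno-miR-15b-5p was at 35.9, 38.5, 27.3 and 37.1 CPM after TBI and at 22.9, 24.6, 25.7 and 30.8 CPM after sham surgery. Here 3 TBI rats exceeded the highest sham rat and 1 lay among the sham rats. The log2 fold change was 0.41 (SE 0.14), with an unadjusted p of 0.0189 and an adjusted p of 0.275 by edgeR's quasi-likelihood test. At 24 h the TBI levels were 26.6, 49.5, 28.7 and 28.2 CPM against 27.1, 33.7, 25.3 and 23.3 CPM in sham rats, and a single TBI rat accounted for most of the distance between the means. Its estimated log2 fold change was above 0 at 6 of 7 intervals and was -0.27 (SE 0.26) at 2 months, where it was -0.02 without TBI 2 months replicate 2 and -0.44 with scaling by total count alone. At 1 year the sign depended on 1 rat, since the log2 fold change of 0.07 turned negative without TBI 1 year replicate 2.

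The lowest fold changes belonged to rno-miR-322-5p, the rodent counterpart of human miR-424, which is known from muscle differentiation and blood vessel growth. At 2 months it was at 68.5, 58.7, 46.3 and 67.0 CPM in TBI rats and at 103, 65.9, 109 and 85.8 CPM in sham rats. Of the TBI rats, 2 lay below every sham rat and 2 lay just above the lowest sham rat, so the groups overlapped. The first of these TBI values rests on 6 counts in the shallow library. The log2 fold change was -0.65 (SE 0.22), or -0.67 without that library, with an unadjusted p of 0.0142 and an adjusted p of 0.420 by edgeR's quasi-likelihood test. At 1 month the levels were 46.0, 31.7, 78.6 and 65.9 CPM after TBI and 106, 76.8, 61.0 and 62.5 CPM after sham surgery, with a log2 fold change of -0.46 (SE 0.28) and wide overlap. From 3 months on the log2 fold change of rno-miR-322-5p lay between 0.05 and 0.17.

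The 2 most abundant members had smaller fold changes. For rno-miR-16-5p, known together with miR-15a as a tumour suppressor in leukaemia, the log2 fold change ranged from -0.19 (SE 0.19) at 2 months to 0.22 (SE 0.12) at 6 months. At 6 months its TBI levels were 1322, 1674, 1735 and 1686 CPM against 1634, 1395, 1192 and 1303 CPM in sham rats, so 3 TBI rats lay above and 1 among the sham rats. At 1 month 1 library set its sign, as the log2 fold change of -0.09 became 0.10 without TBI 1 month replicate 2. For rno-miR-195-5p, which is best known from heart muscle that has left the cell cycle, the log2 fold change ranged from -0.27 (SE 0.18) at 2 months to 0.10 (SE 0.11) at 3 months.

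The pattern of rno-miR-497-5p was close to that of its genomic neighbour, with log2 fold changes from -0.27 (SE 0.17) at 2 months to 0.08 (SE 0.11) at 1 year. For rno-miR-503-5p, which is known for targeting cyclin D1, the log2 fold change was 0.34 (SE 0.16) at 6 months, where TBI rats were at 20.9, 24.6, 17.7 and 23.1 CPM and sham rats at 18.3, 17.3, 18.7 and 14.7 CPM. There 3 TBI rats exceeded the highest sham rat, and the adjusted p was 0.963 by edgeR's quasi-likelihood test. Other counted miRNAs of the Mir322 and Mir503 region, named here for their position, also gave no call where they were tested. At 1 month the log2 fold change was -0.48 (SE 0.21) for rno-miR-450a-5p and -0.39 (SE 0.20) for rno-miR-450b-5p, near that of rno-miR-322-5p, and 0.47 (SE 0.19) for rno-miR-351-5p, with adjusted p between 0.238 and 0.323 in edgeR's quasi-likelihood fit.

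The estimates of the 6 members tended to lie on the same side of 0 within an interval. At 2 months all 6 log2 fold changes were negative, with a median of -0.27 against -0.04 over all miRNAs tested. For rno-miR-503-5p, at -0.08 (SE 0.23), the mean CPM ran the other way, with 22.2 ± 9.25 (SD, n = 4) after TBI and 19.5 ± 2.09 after sham surgery, the highest TBI rat (34.2 CPM) being the shallow library with 3 counts. At 3 months, 6 months and 1 year all 6 were positive, with medians of 0.14, 0.14 and 0.08 against 0.06, 0.00116 and -0.00312 over all miRNAs. At 1 month 5 of 6 were negative, with a median of -0.20 against 0.02. The signs of rno-miR-503-5p at 2 months, rno-miR-322-5p at 3 months, rno-miR-195-5p and rno-miR-322-5p at 6 months and rno-miR-15b-5p at 1 year each turned without a single rat. These signs are a description, since the members of a library share 1 scaling and were not independent of each other.

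**Figure D2:**
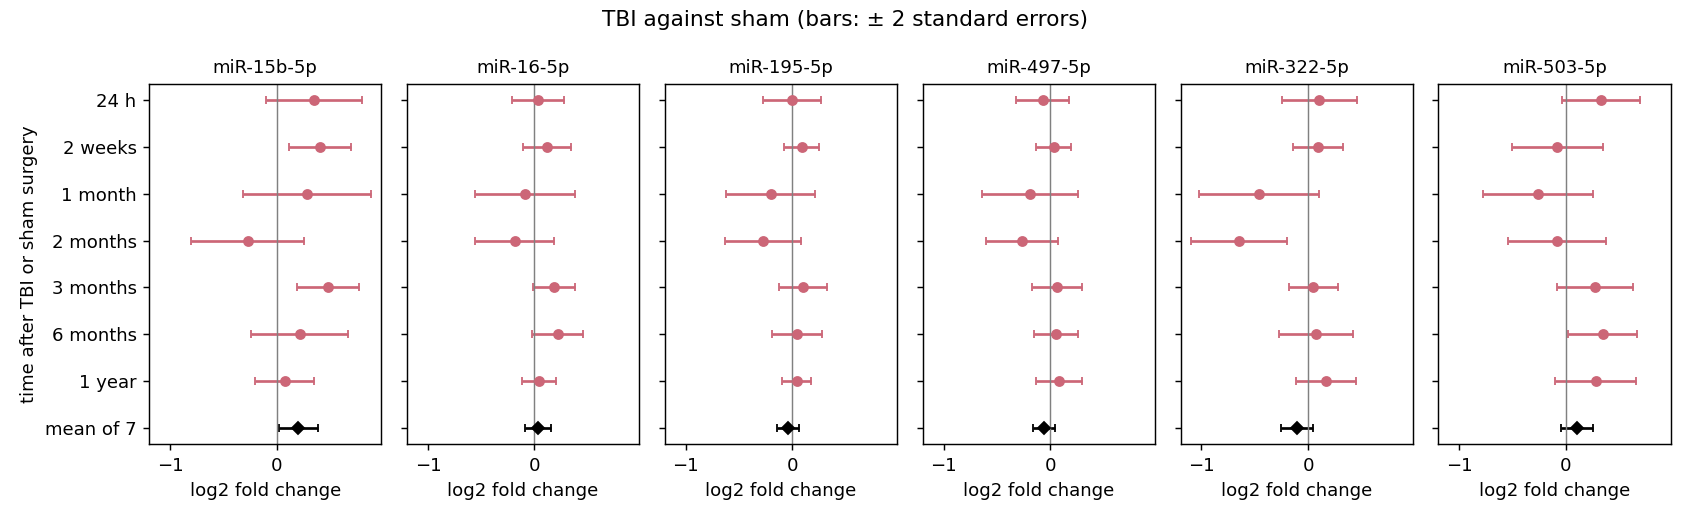
Log2 fold change of TBI against sham (x axis) for each member at 7 intervals (red circles) and averaged over the intervals (black diamonds); bars are ± 2 standard errors from edgeR's quasi-likelihood fits. Most bars cross 0, and miR-15b-5p lies to the right of 0 at 6 of 7 intervals.

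Averaged over the intervals in a fit of all 56 libraries, no member passed the threshold either. The mean log2 fold change of rno-miR-15b-5p was 0.20 (SE 0.09), with an unadjusted p of 0.0309 and an adjusted p of 0.279 by edgeR's quasi-likelihood test. The means of the other 5 members lay between -0.10 (SE 0.08, rno-miR-322-5p) and 0.10 (SE 0.08, rno-miR-503-5p). The same test called 4.92% of 244 miRNAs, and the median over the 6 members was -0.00604 against -0.00828 over all miRNAs. For rno-miR-16-5p, rno-miR-195-5p and rno-miR-497-5p the SE of the mean effect was 0.05 to 0.06.

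Whether the injury effect differed between intervals was tested directly with interaction terms. Again 0 of the 6 members passed, against 2.87% of 244 miRNAs. The lowest value was that of rno-miR-322-5p, with an unadjusted p of 0.0232 and an adjusted p of 0.237 by edgeR's quasi-likelihood test. Without TBI 1 month replicate 3 its adjusted p was 0.0406, so 1 library decided that call. The adjusted p of the other members was between 0.467 and 0.753.

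In sham rats alone, the level of most members changed with the interval. Of the 6 members, 5 changed across the 7 intervals in edgeR's quasi-likelihood F test of the 28 sham libraries, a test that called 27.1% of 240 miRNAs. The adjusted p was 0.00184 for rno-miR-497-5p, 0.0055 for rno-miR-195-5p, 0.00913 for rno-miR-15b-5p, 0.0171 for rno-miR-322-5p and 0.0208 for rno-miR-16-5p. For rno-miR-503-5p it was 0.373. Without the 4 sham libraries of 2 months, only rno-miR-195-5p passed among the members (adjusted p 0.045), while 6.47% of all miRNAs were called, so 4 of the 5 calls were lost. In that smaller F test the unadjusted p was 0.0393 for rno-miR-15b-5p, 0.0338 for rno-miR-16-5p, 0.0337 for rno-miR-322-5p and 0.151 for rno-miR-497-5p. Without Sham 2 months replicate 3 the adjusted p of rno-miR-16-5p was 0.0558.

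Among the sham groups, each member had its highest mean at 2 months. For rno-miR-497-5p they were at 284, 275, 275 and 262 CPM, and the sham rats of 24 h were at 176, 183, 152.6 and 166 CPM. These groups were far apart, with a log2 fold change of 0.66 (SE 0.11) and an adjusted p of 4.82e-04. For rno-miR-195-5p the levels were 710, 574, 696 and 515 CPM at 2 months and 441, 479, 407 and 335 CPM at 24 h, also without overlap. Its log2 fold change was 0.56 (SE 0.12, adjusted p 0.00188).

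For rno-miR-16-5p the sham levels rose from 1061, 1121, 1058 and 900 CPM at 24 h to 1719, 1222, 1552 and 1296 CPM at 2 months, a log2 fold change of 0.46 (SE 0.12, adjusted p 0.00769). For rno-miR-322-5p they were 67.3, 60.2, 53.6 and 45.6 CPM at 24 h and 103, 65.9, 109 and 85.8 CPM at 2 months, where 1 rat lay within the range of 24 h. Its log2 fold change was 0.65 (SE 0.19, adjusted p 0.0148), and this call was lost without Sham 24 h replicate 4 or Sham 2 months replicate 3. For rno-miR-15b-5p the log2 fold change was 0.42 (SE 0.17, adjusted p 0.0805) and for rno-miR-503-5p 0.19 (SE 0.18, adjusted p 0.508), all by the same edgeR fit.

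Thus 4 of 6 members were called at 2 months against 24 h, where 18.8% of all miRNAs were called. At 6 months 2 of 6 were called, against 6.25% of all miRNAs. These were rno-miR-195-5p, with a log2 fold change of 0.56 (SE 0.12, adjusted p 0.0116), and rno-miR-16-5p, with 0.41 (SE 0.12, adjusted p 0.0391). The call of rno-miR-195-5p was lost without Sham 24 h replicate 4 or Sham 6 months replicate 4, and that of rno-miR-16-5p without any 1 of 7 libraries or with scaling by total count alone. At 2 weeks, 1 month, 3 months and 1 year the lowest adjusted p of a member was 0.0595 (rno-miR-195-5p at 1 year, log2 fold change 0.44, SE 0.12) by edgeR's quasi-likelihood test, which called 0%, 1.25%, 3.75% and 1.67% of all miRNAs.

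Summed levels of marker miRNAs are given for the same sham groups, without a test. Of the 6 lists, only the vessel wall and the leukocyte and microglia sums did not overlap between 2 months and 24 h. The summed level of 3 vessel wall miRNAs (miR-143, miR-145 and miR-126a) was 1393 to 1950 CPM at 2 months and 859 to 1312 CPM at 24 h. The leukocyte and microglia sum went the other way, with 839 to 1028 CPM at 2 months and 1148 to 2372 CPM at 24 h. The choroid plexus miRNAs (miR-204, miR-211, miR-448 and miR-764) summed to 1179 to 1863 CPM at 2 months and 1411 to 5107 CPM at 24 h, and the neuronal miRNAs to 170813 to 234295 CPM and 202288 to 275558 CPM. No marker was at 0 in any group. The vessel wall list and the leukocyte and microglia list each matched 3 counted rows for 3 names, and the neuronal list matched 8 for 7. The sums therefore do not hold both the 5p and the 3p miRNA of every name, and the arm counted is not given here. TMM factors were 1.07 to 1.16 at 2 months and 0.945 to 1.07 at 24 h, and with scaling by total count alone 5 of the 6 members still passed the F test. The part of these sums in the members' levels was not tested, and in whole tissue fewer cells of a type and less RNA per cell cannot be told apart.

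In TBI rats the same F test, added after the data were seen, also called 27.1% of 240 miRNAs. Only rno-miR-195-5p passed among the members, with an adjusted p of 0.00946, and it still passed without the shallow library (0.0209). For rno-miR-16-5p the adjusted p was 0.0753, for rno-miR-497-5p 0.132 and for rno-miR-322-5p 0.451. In TBI rats rno-miR-195-5p was at 384 to 437 CPM at 24 h and at 512 to 712 CPM at 6 months, without overlap. A call in sham rats and none in TBI rats does not show that the courses differ, since the interaction terms above gave no call.

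**Figure D3:**
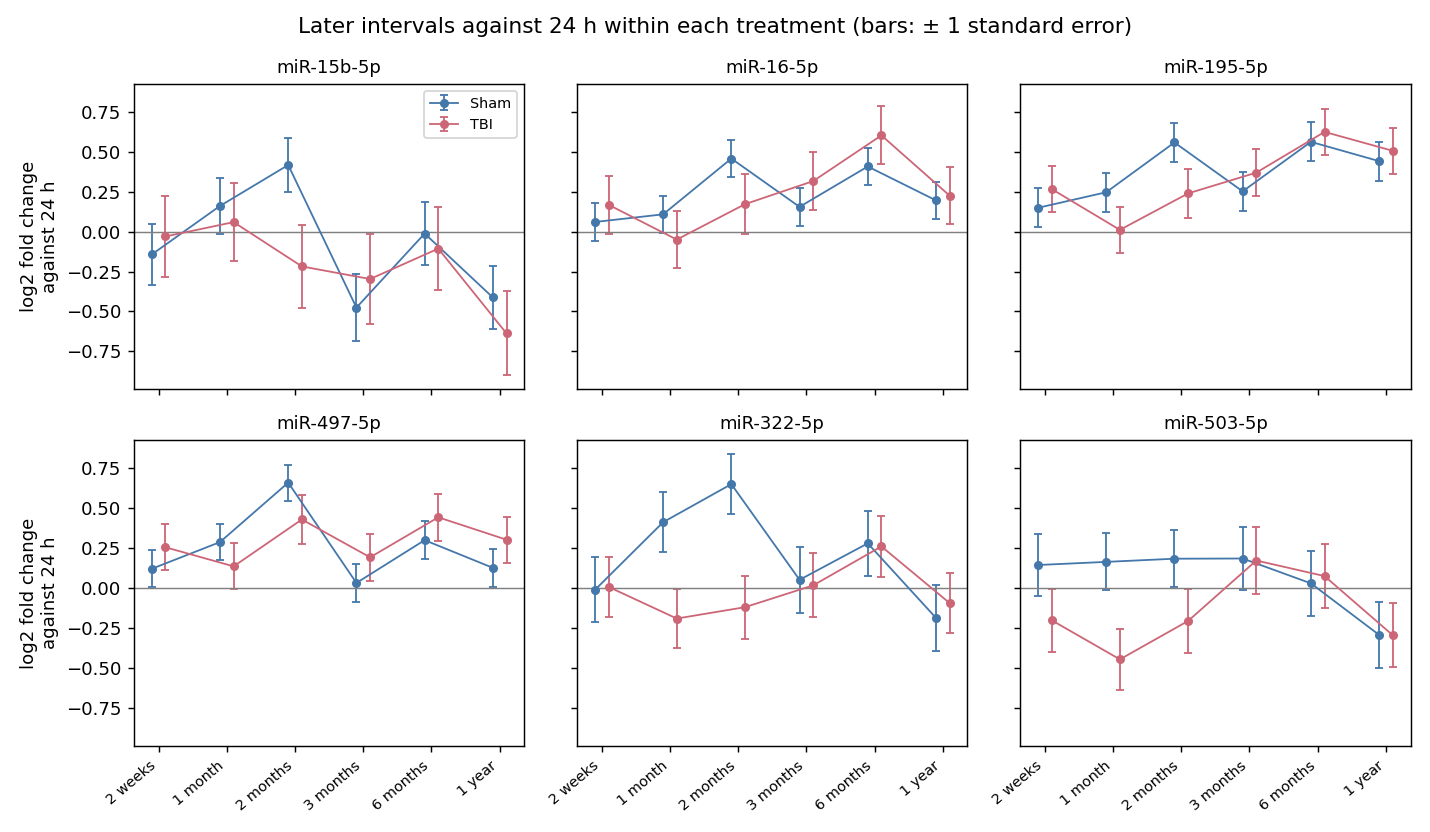
Log2 fold change of each later interval against 24 h (y axis) by interval (x axis, categories not to scale), in sham rats (blue) and TBI rats (red); bars are ± 1 standard error from edgeR's quasi-likelihood fits. The sham course peaks at 2 months for miR-497-5p, miR-322-5p, miR-16-5p and miR-15b-5p, and miR-195-5p is above its 24 h level at every later interval in both treatments.

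Ratios of genomic neighbours do not depend on how libraries are scaled, and were compared as log2 ratios of counts (0.5 added to each). The annotation used gave 1 locus for rno-miR-16-5p and held no entry for rno-miR-15a-5p. Reads of rno-miR-16-5p from any gene other than Mir16 would enter its count, and their part in the ratio was not tested. The median ratio over 55 libraries, leaving out the shallow one, was 0.0237 for rno-miR-15b-5p over rno-miR-16-5p, 2.62 for rno-miR-195-5p over rno-miR-497-5p and 3.37 for rno-miR-322-5p over rno-miR-503-5p. Of 21 comparisons of TBI with sham, 0 passed after Benjamini-Hochberg adjustment of exact permutation tests, and with 4 against 4 rats a single unadjusted p cannot go below 0.0286.

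The ratio of rno-miR-15b-5p to rno-miR-16-5p came closest. At 2 weeks the log2 ratio was -5.12 ± 0.05 (SD, n = 4) after TBI and -5.39 ± 0.14 after sham surgery, and at 3 months it was -5.50 ± 0.08 and -5.84 ± 0.16. In both cases the lowest TBI ratio exceeded the highest sham ratio, with an exact permutation p of 0.0286 and an adjusted p of 0.300. The gap was narrow at 2 weeks, with a lowest TBI log2 ratio of -5.172 and a highest sham log2 ratio of -5.184. At 3 months these were -5.611 and -5.699. The share of other miRNA pairs without overlap was not computed, so these cases have no background beside them. At 1 month the difference was 0.40 on the log2 scale with overlapping groups (exact permutation p = 0.0571). At 6 months and 1 year the difference was 0.03 and 0.05. The ratio of rno-miR-322-5p to rno-miR-503-5p was lower after TBI at 6 of 7 intervals, by 0.71 on the log2 scale at 2 months (exact permutation p = 0.114, adjusted p 0.400, the shallow library included).

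For 2 of the 3 pairs the ratio changed with the interval. For rno-miR-15b-5p over rno-miR-16-5p, the sham median was 0.0258 over the 16 libraries from 24 h to 2 months and 0.0181 over the 12 libraries from 3 months to 1 year. In TBI rats the medians were 0.0294 over 15 libraries and 0.0199 over 12. A permutation test across the 7 intervals, added after the data were seen, gave an adjusted p of 0.00018 in sham and 0.00027 in TBI rats (6 tests).

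The ratio of rno-miR-195-5p to rno-miR-497-5p went the other way. Its sham median was 2.49 in the earlier and 3.01 in the later libraries, and its TBI median 2.50 and 2.96, with adjusted permutation p-values across intervals of 0.00052 and 0.0261. For rno-miR-322-5p over rno-miR-503-5p the adjusted permutation p was 0.172 in sham and 0.58 in TBI rats. The split into earlier and later libraries was made after seeing the values and is given without a test. Median total counts also moved with it, from 6241603.5 to 8041428.5 per interval up to 2 months and from 3781803 to 5113329.5 later, and the part of depth was not tested.

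**Figure D4:**
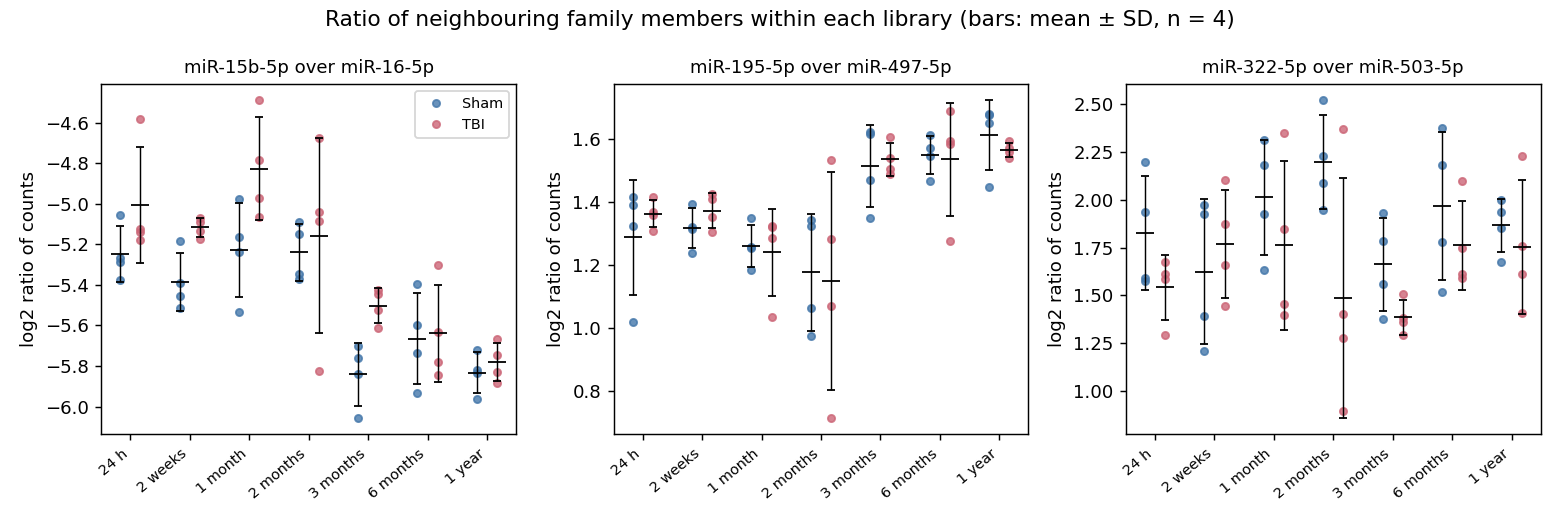
Log2 ratio of counts of 3 pairs of neighbouring members (y axis) by interval (x axis, categories not to scale) for each sham rat (blue) and TBI rat (red); black bars are the mean ± SD of 4 rats. From 3 months on both treatments sit lower for miR-15b-5p over miR-16-5p and higher for miR-195-5p over miR-497-5p.

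Rats of the same group differed from each other in most members at once. Deviations of log2 CPM from the group mean were correlated over 55 libraries, and 12 of the 15 pairs of members had an adjusted permutation p under 0.05 for Pearson's r. With DESeq2 size factors 10 pairs passed, and with scaling by total count alone 14 passed. The share of all miRNA pairs that would pass was not computed, so these counts have no background beside them. The part of sequencing run in these deviations was not tested. The strongest pair was rno-miR-16-5p and rno-miR-195-5p (r = 0.87, Spearman's rho = 0.844, adjusted permutation p = 3.75e-05, r = 0.824 without the 2 libraries farthest from the median). This is also the pair with the most similar mature sequences, shown above. For rno-miR-15b-5p and rno-miR-16-5p r was 0.802 and rho 0.801 (adjusted permutation p = 3.75e-05, r = 0.75 without 2 libraries).

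For the neighbours rno-miR-195-5p and rno-miR-497-5p r was 0.697 and rho 0.629 (adjusted permutation p = 0.0002, r = 0.578 without 2 libraries). For rno-miR-322-5p and rno-miR-503-5p r was only 0.364 and rho 0.369 (adjusted permutation p = 0.0262, r = 0.326 without 2 libraries), and this call was lost with DESeq2 size factors (adjusted permutation p = 0.0625). The 3 pairs that did not pass all held rno-miR-503-5p, with rno-miR-15b-5p, rno-miR-16-5p or rno-miR-195-5p and r between 0.197 and 0.266. Counts of rno-miR-503-5p were the lowest of the family, and their part in these values was not tested. With 28 sham libraries alone 9 pairs passed, and with 27 TBI libraries alone 8 passed. The smallest unadjusted p that the permutations could give was 1e-05.

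**Figure D5:**
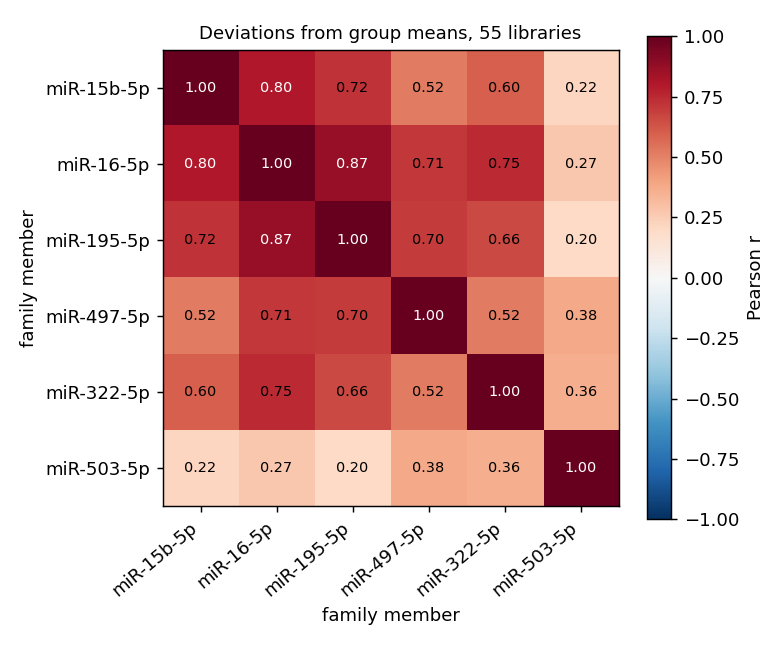
Pearson's r between each pair of members (both axes list the members; colour gives r) for deviations of log2 CPM from group means over 55 libraries. The highest value off the diagonal is 0.87 for miR-16-5p with miR-195-5p, and the row of miR-503-5p is the palest.

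The miRNAs whose deviations were most like those of each member, among 243 others in 55 libraries, included several of the miR-17 and miR-106b clusters, themselves known for promoting the cell cycle. For rno-miR-15b-5p they were rno-miR-93-5p (r = 0.838), rno-miR-16-5p (0.802) and rno-miR-582-5p (0.794). For rno-miR-16-5p they were rno-miR-195-5p (0.87), rno-miR-20a-5p (0.861) and rno-miR-15a-5p (0.85). For rno-miR-195-5p they were rno-miR-16-5p (0.87), rno-miR-106b-5p (0.795) and rno-miR-20a-5p (0.738).

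The highest for rno-miR-322-5p was also rno-miR-106b-5p (r = 0.802), before rno-miR-16-5p (0.745) and rno-miR-15a-5p (0.742). For rno-miR-497-5p they were rno-miR-16-5p (0.706), rno-miR-195-5p (0.697) and rno-miR-361-5p (0.666). For rno-miR-503-5p no value was above 0.535, that of rno-miR-361-5p, followed by rno-miR-29b-5p (0.499) and rno-miR-879-5p (0.387). The median r of a member with all other miRNAs lay between -0.0134 and 0.0533. All points share their library's depth and scaling, so these values are descriptive.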

How the data were processed

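The authors extracted total RNA, made small RNA libraries with the NEBNext kit, sequenced them on a NextSeq550, and used miRDeep2 2.0.0.8 to trim reads and count them against the mature miRNAs of miRBase release 22. The deposited values are raw counts of 367 miRNAs without normalization, 34 of which had no reads. The submitters' processing notes also name bcl2fastq 2.20.0.422. The division of reads matching more than 1 miRNA is not given in the sources used here. Total counts were 69628 to 12468979 per library.

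The members, marker lists and tests were chosen with earlier results of these data known, although the rule for the members is a list of names and uses no measured value. All 6 members are named at every comparison, together with the 3 miRNAs most like each in within-group deviations, by Pearson's r. Other miRNAs starting with the same motif were to be given by value, and no counted miRNA with a sequence met that rule. Marker lists for 6 cell types were summed in CPM, and those moving with a result are given. For red blood cells the sum was 176 to 666 CPM, for leukocytes and microglia 829 to 2372 CPM, and for oligodendrocytes 1490 to 3310 CPM over the libraries.

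Tests of the counts used the quasi-likelihood method of edgeR 4.0.16 under R 4.3.3, after filterByExpr and TMM scaling and with Benjamini-Hochberg adjustment, each interval on its own 8 libraries, the mean effect and the interaction on 56, and the interval courses on 28. The SE was taken as the size of the log2 fold change over the root of F. DESeq2 1.42.0 served as an alternative. CPM and correlations used TMM over 56 libraries and a prior count of 2, correlations only libraries of at least 1000000 counts, and 100000 permutations. Python 3.11.15 and matplotlib 3.10.9 were used. The steps were tested on simulated data. Sequences and positions come from RefSeq on GRCr8. Replicates are separate rats by the study's methods, and their numbers were given here in the order of deposit and only name a rat. Sequencing run was not given in the labels. The sample titles end in an S number, and each number is shared by a pair of libraries, which may mean more than a single run. At 1 year each pair joins a sham and a TBI library, and at all other intervals each pair lies within the same group. No term for run was fitted. The part of run in the within-group correlations and in the comparison at 1 year was not tested.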

Additional observations from a re-analysis of the deposited data

Results flagged for a closer look

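In 84 groups of 4 rats (6 members in 14 groups), 6 held 1 rat whose distance to the nearest of the others exceeded the 95% critical value of Dixon's test, where chance alone gives about 1 in 20, or 4.2. For rno-miR-15b-5p, TBI 24 h replicate 2 was at 49.5 CPM, with the other 3 rats at 26.6 to 28.7 CPM. For rno-miR-16-5p, Sham 2 weeks replicate 1 was low at 965 CPM, with the others at 1125 to 1130 CPM. TBI 6 months replicate 1 was also low for rno-miR-16-5p, at 1322 CPM against 1674 to 1735 CPM. For rno-miR-497-5p, Sham 6 months replicate 3 was at 192 CPM against 215 to 218.8 CPM, Sham 1 year replicate 4 at 217 CPM against 168 to 172 CPM, and TBI 6 months replicate 2 at 238 CPM against 212 to 213 CPM. The value of Sham 2 weeks replicate 1 also enters the ratio of rno-miR-15b-5p to rno-miR-16-5p at 2 weeks, in which TBI and sham rats did not overlap.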

How the results depend on the processing

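Over 711 alternative fits of the 6 members for TBI against sham at the 7 intervals (other scalings, filters and tests, a fit of all 56 libraries, and each rat left out), 0 gave an adjusted p under 0.05 (lowest 0.0554, rno-miR-322-5p at 1 month with all libraries in 1 fit), 692 kept the direction and 19 reversed it. Wherever the direction reversed, the cause was not tested. With scaling by total count alone, the log2 fold change of rno-miR-195-5p at 24 h was 0.03. With each rat left out in turn, the log2 fold change at 24 h ranged from -0.01 to 0.07 for rno-miR-16-5p and from -0.07 to 0.04 for rno-miR-195-5p, at 2 weeks from -0.01 to 0.07 for rno-miR-497-5p and from -0.24 to 0.04 for rno-miR-503-5p, at 1 month from -0.30 to 0.10 for rno-miR-16-5p, and at 2 months from -0.31 to 0.16 for rno-miR-503-5p. It ranged at 3 months from -0.02 to 0.10 for rno-miR-322-5p, at 6 months from -0.00542 to 0.13 for rno-miR-195-5p and from -0.02 to 0.27 for rno-miR-322-5p, and at 1 year from -0.00231 to 0.16 for rno-miR-15b-5p. The number of members whose TBI effect differed between intervals was 0 or 1 when each rat was left out, the 1 being rno-miR-322-5p without TBI 1 month replicate 3. Of the 5 members called across intervals in sham rats, 1 was called without the 2 months libraries. In sham rats at 6 months against 24 h, the log2 fold change of rno-miR-15b-5p was 0.00558 without a filter, 0.00631 with edgeR's likelihood ratio test, 0.00875 with the older quasi-likelihood fit and -0.25 to 0.13 with each rat left out, and that of rno-miR-503-5p was -0.01 with total count scaling and -0.06 to 0.16 with each rat left out. Over all miRNAs, the number called ranged over the alternatives from 2 to 8 at 24 h, 0 to 8 at 2 weeks, 1 to 45 at 1 month (45 with all 56 libraries in 1 fit), 0 to 5 at 2 months, 0 to 1 at 3 months and 1 year, 6 to 20 for the mean effect, 5 to 18 for its difference between intervals and 41 to 98 across sham intervals, and it was 0 throughout at 6 months. The members with few counts, rno-miR-503-5p and rno-miR-15b-5p, limit the precision most in the shallow library. No paired analysis was made, since TBI and sham rats were separate animals and the labels give no pairing. The replicate numbers used here only name a rat.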
